A study of Cucumis melo with 27 samples.

Results

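A set of 64 melon (Cucumis melo) genes was described that were abundant in young fruit, low in older fruit, with stages taken by library number, and under 1 CPM in leaf. The genes were chosen by their measured CPM, the count of a gene scaled to 1000000 counts of its library. A gene entered when its mean in libraries 1-3 was at least 8 times the mean of libraries 7-9 plus 0.5 CPM, and its mean in libraries 10-12 at least 8 times the mean of libraries 16-18 plus 0.5 CPM. In addition, every library of the higher group had to lie above every library of the lower group in both pairs, and the mean of the leaf libraries 19-21 had to be under 1 CPM. Of the 25200 genes in the files, 64 (0.254%) met all criteria. Of all genes, 3.04% met the fruit criteria in libraries 1-3 and 7-9 alone, 2.64% in libraries 10-12 and 16-18 alone, and 1.76% (444 genes) in both, whereas 50.6% had a leaf mean under 1 CPM. The other 380 of the 444 genes had a leaf mean of 1 CPM or more and served for comparison.

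RNA-seq was done on field-grown plants of 2 cultivars, F39 and TTDV, in 27 libraries that form 9 groups of 3. Fruit was taken at 20-25, 30-35, 40 and 45 days (d) after flowering in both cultivars, and leaves 14 days old in F39. The sources used here do not give the part of the fruit sampled, any pooling of plants, or whether the replicates are separate plants, so p-values measure the spread between these libraries, which may be technical. Libraries are named here by the number on their file. The number is also that of the sample's title for F39 at 20-25 d (libraries 1-3), F39 at 30-35 d (4-6), F39 at 40 d (7-9), F39 leaf (19-21) and TTDV at 45 d (62-64). The remaining 12 libraries carry differing numbers. Libraries 10-12 are attached to F39 at 45 d but are TTDV at 20-25 d by their number. Libraries 13-15 are attached to TTDV at 20-25 d and are TTDV at 30-35 d by number. Libraries 16-18 are attached to TTDV at 30-35 d and are TTDV at 40 d by number, and libraries 59-61 are attached to TTDV at 40 d and are F39 at 45 d by number. The selection followed the library numbers. Every comparison below is between the same libraries under either reading. The sources used here do not settle the stage of the disputed groups. Young fruit below means libraries 1-3 and 10-12 and older fruit libraries 7-9 and 16-18, names that follow the library numbers and that do not hold for libraries 10-12 and 16-18 as attached.

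After flowering, a melon fruit first grows by cell division and then by cell enlargement, and it later ripens, when sugars accumulate, the flesh softens and pigments and aroma form. Genes used for division, for wall growth and for the first steps of seed development are typically active early and shut down before ripening. The files give gene IDs without names, and a RefSeq table of melon genes (assembly USDA_Cmelo_AY_1.0) held 0 of the 25200 IDs. The role of each member, lists of pathway genes and tissue markers were therefore not examined, and the members are ordered by level and by behaviour.

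Total counts ran from 6025615 to 28731038 per library, and no file was identical to another. Summed over the 64 members, libraries 1, 2 and 3 held 3688, 3011 and 3260.5 CPM, and libraries 10, 11 and 12 held 4063, 4095 and 3077 CPM. The older fruit used in the selection held 120, 59.4 and 111 CPM in libraries 7, 8 and 9 and 53.2, 125 and 79.2 CPM in libraries 16, 17 and 18. The 10 most abundant members made up 57.9% of the summed level in libraries 1-3 and 10-12. Because the members were selected on these values, the gap between the young and older libraries is a description and was not tested. In tissue RNA, fewer cells of a type and less RNA per cell cannot be told apart.

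**Figure D1:**
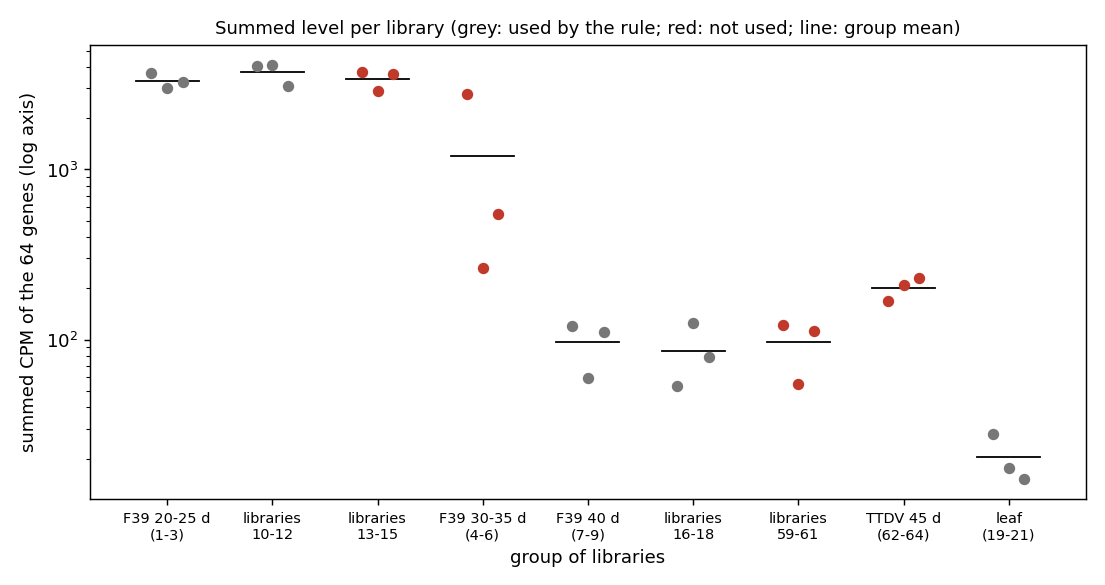
Summed level of the 64 members in each library, in CPM on a log axis, with libraries used for the selection in grey, the others in red and the group mean as a line. Libraries 13-15 lie between 2878 and 3715 CPM and libraries 59-64 between 55.3 and 229 CPM, while library 4 at 2791 CPM stands above libraries 5 and 6 at 264 and 551 CPM.

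The ratio of the mean of libraries 1-3 to the mean of libraries 7-9 plus 0.5 CPM had a median of 19.1 over the members, from 8.02 to 129.8. The matching ratio of libraries 10-12 to libraries 16-18 had a median of 20.1, from 8.33 to 224.5. With the smaller ratio counting, MELO3C017981.2 (8.02), MELO3C003686.2 (8.11) and MELO3C002394.2 (8.18) lay just inside the limit of 8. MELO3C008152.2 (7.96), MELO3C023320.2 (7.76) and MELO3C005345.2 (7.69) met the other criteria and lay just outside it.

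The name of the set as silent in leaf held only as low counts. In the leaf libraries together, with 59654845 counts, 10 of the 64 members had no count, which allows a level of up to 0.0503 CPM over the group, 8 had 1 to 3 counts and 32 had more than 10. The highest sum was 61 counts. In 13 members at least 1 leaf library exceeded 1 CPM, the highest being 2.25 CPM for MELO3C003686.2 in library 19. The highest leaf means belonged to MELO3C021766.2, with 0.774, 1.22 and 0.94 CPM in libraries 19, 20 and 21, and to MELO3C026564.2, with 0.155, 1.83 and 0.905 CPM. The first of these genes had similar levels in the 3 leaf libraries, whereas the second was low in library 19. Such a floor covers counting error only: PCR copies were not told apart by molecular identifiers.

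**Figure D2:**
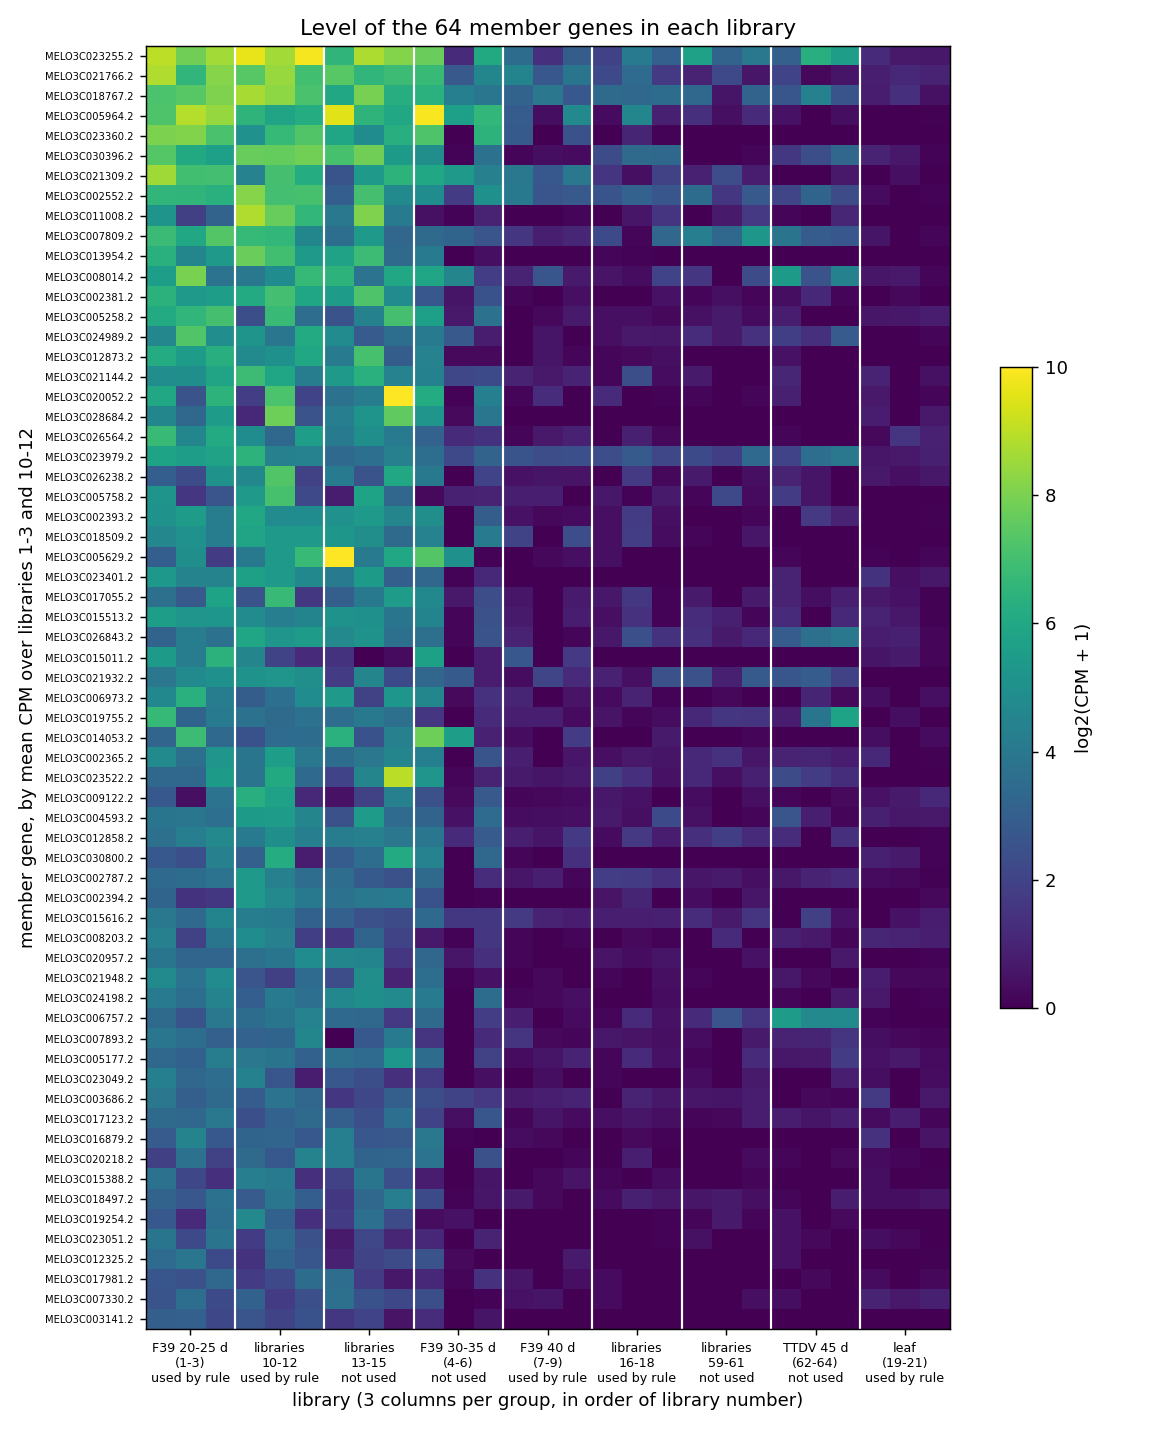
Level of each of the 64 members (rows) in each of the 27 libraries (columns), as log2(CPM + 1). Most members are high in libraries 1-3, 10-12 and 13-15, mixed in libraries 4-6 and low in the remaining fruit libraries and in leaf. In libraries 62-64, 10 members had a mean of 5 CPM or more, and in libraries 59-61, 5 did.

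The most abundant member in young fruit was MELO3C023255.2, with 515, 229 and 389.6 CPM in libraries 1, 2 and 3 and 813, 386 and 940.1 CPM in libraries 10, 11 and 12. MELO3C021766.2 followed, with 447, 94.5 and 289.5 CPM and 169.6, 350.1 and 124 CPM. MELO3C018767.2 had 141, 167 and 264 CPM and 409, 311 and 137 CPM. In these 3 genes the 2 young groups overlapped. Counts depend on transcript length, which was not available, so an order of genes by CPM is an order of reads and not of molecules. The other genes among the 10 most abundant were MELO3C005964.2, MELO3C023360.2, MELO3C030396.2, MELO3C021309.2, MELO3C002552.2, MELO3C011008.2 and MELO3C007809.2.

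Libraries 4-6, 13-15, 59-61 and 62-64 had no part in the selection, and the members were compared in them. All 64 members were tested, because low-count filtering over all 27 libraries kept 15130 genes and the members passed it through libraries 1-3 and 10-12. In libraries 13, 14 and 15, which are TTDV under either reading, the summed level was 3715, 2878 and 3654 CPM (3416 ± 467, SD, n = 3). It was 169, 209 and 229 CPM (202 ± 30.7) in libraries 62, 63 and 64, which are TTDV at 45 d. The median of the member means was 20.7 CPM in libraries 13-15 and 0.350 CPM in libraries 62-64. In their sum and median the members were thus high in libraries 13-15 and low in libraries 62-64. The sums of these groups did not overlap.

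From libraries 13-15 to TTDV at 45 d, 42 of the 64 members fell and none rose, by edgeR's quasi-likelihood test at a Benjamini-Hochberg adjusted p of 0.05 over all genes tested. Of all 15130 genes tested, 14.7% fell and 12.6% rose. No member was higher at an unadjusted p under 0.05 (background 19.2%), and DESeq2 called none higher (background 15.3%). The median log2 fold change over the members was -5.67, or -5.25 with members without a count in the lower group set to their bound, against -0.04 over all genes tested. Every library of 62-64 lay below every library of 13-15 in 51 members (background 22.5%) and above in 1 (background 20.5%). Without library 62, 63 or 64 the members called lower numbered 19, 18 and 18, beside 1321, 1323 and 1242 of all genes. With no filter on low counts 23 members were called lower, a setting for which no count over all genes is given.

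The loss was clearest in genes that stayed past the threshold whichever library was left out. MELO3C021766.2 stood at 169.9, 95.5 and 116 CPM in libraries 13, 14 and 15 and at 3.08, 0.154 and 0.49 CPM in libraries 62, 63 and 64, with -6.76 ± 1.32 (SE) as the log2 fold change (adjusted p = 0.00587, edgeR). MELO3C005964.2 had 754, 90.2 and 63.4 CPM and then 0.419, 0 and 0.294 CPM, a log2 fold change of -10.43 ± 1.82 (adjusted p = 0.00413, edgeR). MELO3C026564.2 had 16.1, 30.1 and 16.9 CPM against 0.14, 0 and 0 CPM, a single count in the lower group, and an adjusted p of 0.00272 (edgeR). In each of these 3 genes the groups lay far apart, and library 13 alone was high within its group for MELO3C005964.2. The ratio of means of MELO3C026564.2 was 503 with a 95% counting interval of 90.2 to 19856, and without library 62, with no count left in the lower group, the gene was at least 117-fold lower. MELO3C003686.2, a member near the limit of the selection, had 2.03, 3.4 and 7.23 CPM against 0, 0.154 and 0.0981 CPM, a log2 fold change of -5.41 ± 0.95 (adjusted p = 0.00394, edgeR).

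Among the members called lower without overlap, the 6 largest fitted drops belonged to MELO3C005629.2, MELO3C028684.2, MELO3C013954.2, MELO3C023360.2, MELO3C014053.2 and MELO3C018509.2. The last 5 had no count in libraries 62-64, so each fold is a lower bound against a floor of 3 counts over the group. MELO3C028684.2 had 18.2, 35.3 and 187 CPM in libraries 13, 14 and 15 and was at least 638-fold lower in libraries 62-64 (adjusted p = 0.0144, edgeR), or at least 213-fold lower without library 15. MELO3C018509.2 had 38.4, 29.9 and 9.94 CPM and was at least 207-fold lower (adjusted p = 0.0134, edgeR). Both held their call without any 1 library. The same was not true of MELO3C023360.2, with 59.5, 28.3 and 78.6 CPM and a drop of at least 441-fold (adjusted p = 0.0267, edgeR), whose call was lost without library 13, 62, 63 or 64. MELO3C013954.2, with 52.7, 115 and 9.94 CPM, was at least 471-fold lower (adjusted p = 0.0316, edgeR), or at least 249-fold lower without library 14, and its call was lost without library 13, 14, 62, 63 or 64. MELO3C014053.2, with 82.2, 4.77 and 19.5 CPM, was at least 282-fold lower (adjusted p = 0.0179, edgeR), or at least 96.7-fold lower without library 13, a call lost without library 64.

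MELO3C005629.2 owed its place to library 13. It had 1525 CPM there, the highest value of any member in that group, but 16.9 and 61.3 CPM in libraries 14 and 15 and 0.14, 0 and 0 CPM in libraries 62, 63 and 64. The ratio of means was 12751 (95% counting interval 2289 to 503650.0; adjusted p = 0.0187, edgeR) and 839.5 without library 13. The call was lost without library 62, 63 or 64.

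Evidence of a drop was uneven among other abundant members. MELO3C023255.2 went from 93.3, 440.4 and 285 CPM in libraries 13, 14 and 15 to 7.27, 77.2 and 46.5 CPM in libraries 62, 63 and 64. Its groups did not overlap, but the log2 fold change of -2.66 ± 1.30 missed the threshold (adjusted p = 0.146, edgeR), and DESeq2 called it. MELO3C018767.2 went from 62.3, 245 and 74 CPM to 5.31, 20.0 and 5.00 CPM and was called lower, with a log2 fold change of -3.73 ± 1.05 (adjusted p = 0.0243, edgeR). That call was lost without library 14, 62 or 64. MELO3C002552.2 had 6.89, 133 and 26.3 CPM and then 3.22, 8.3 and 4.02 CPM, with overlap between the groups. The log2 fold change was -3.47 ± 1.11 (adjusted p = 0.0387, edgeR). It was -1.55 without library 14 and lost its call there and without library 62, 63 or 64. MELO3C011008.2 went from 15.1, 271 and 15.8 CPM to 0.14, 0 and 1.08 CPM, a log2 fold change of -7.85 ± 1.72 (adjusted p = 0.00924, edgeR), or -5.16 without library 14.

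**Figure D3:**
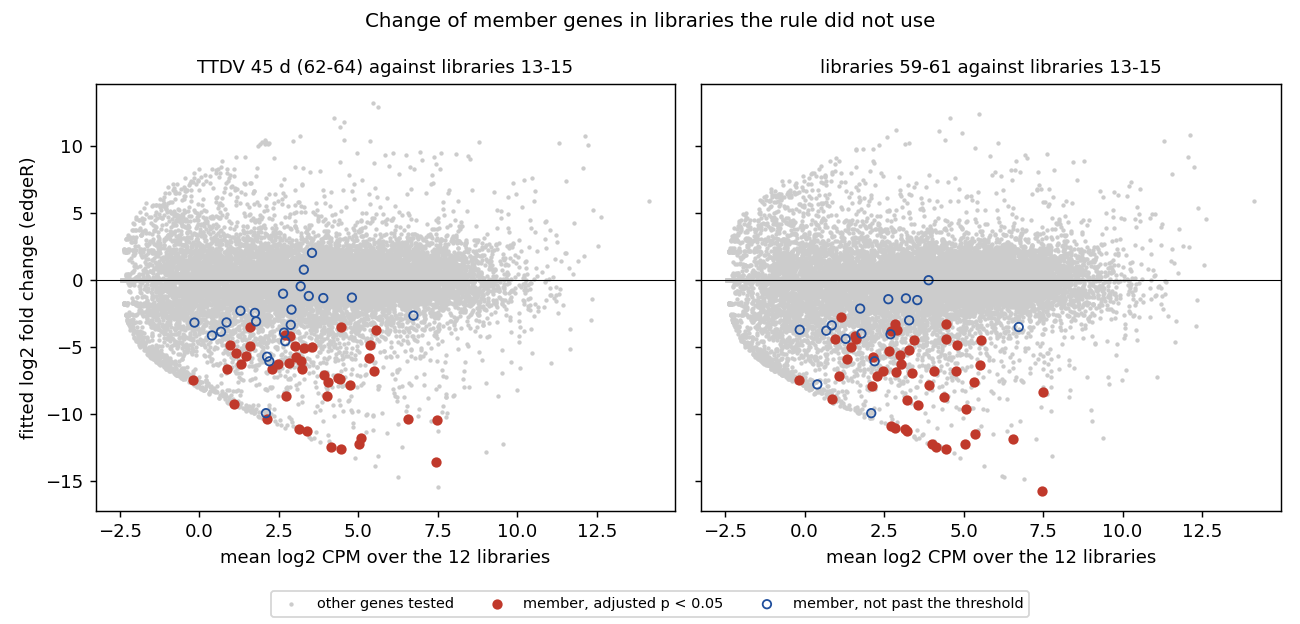
Fitted log2 fold change (vertical) against mean log2 CPM over the 12 libraries not used in the selection (horizontal) for all 15130 genes tested, with libraries 62-64 (left) and 59-61 (right) compared with libraries 13-15. Filled points are members past the adjusted p of 0.05, of which there are 42 on the left and 48 on the right, all below the line at 0, and open points are the other members.

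Libraries 59-61 were also low. They held 123, 55.3 and 112 CPM summed over the members (96.8 ± 36.3, SD, n = 3), with a median member mean of 0.294 CPM. Each of these sums lay below those of libraries 62-64. Against libraries 13-15, 48 of the 64 members fell and none rose by edgeR's test, where 15.8% of all genes tested fell and 12.6% rose. At an unadjusted p under 0.05 no member was higher (background 18.8%), and DESeq2 called none higher (background 15.2%). The median log2 fold change was -6.17, or -5.43 with zero groups at their bound, against -0.11 over all genes tested. Every library of 59-61 lay below every library of 13-15 in 57 members (background 23.9%). Without library 59, 60 or 61 the called members numbered 20, 23 and 18, beside 1283, 1235 and 1216 of all genes called lower. The comparisons of libraries 62-64 and of libraries 59-61 share libraries 13-15, so the values of each are given on their own. By their number libraries 59-61 are F39, and in that case cultivar and stage cannot be told apart in this comparison.

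Values per gene in libraries 59-61 differed from those in 62-64 for some members. MELO3C030396.2 had 136, 225 and 42.9 CPM in libraries 13, 14 and 15, 0, 0 and 0.105 CPM in libraries 59, 60 and 61, and 2.10, 4.30 and 8.73 CPM in libraries 62, 63 and 64. All libraries of 62-64 lay above those of 59-61. Its log2 fold change from libraries 13-15 was -11.45 ± 1.98 in libraries 59-61 (adjusted p = 0.00378, edgeR) and -4.87 ± 1.32 in libraries 62-64 (adjusted p = 0.021, edgeR), the latter lost without library 14, 62 or 63. Libraries 59-61 held 1 count of the gene, a ratio of means of 3165 (95% counting interval 568 to 124990.0), or at least 626-fold lower without library 61. MELO3C021309.2 ran the other way, with 5.11, 41.7 and 87.0 CPM in libraries 13-15, 0.886, 4.15 and 0.734 CPM in libraries 59-61 and 0, 0 and 0.588 CPM in libraries 62-64. Its log2 fold change was -4.41 ± 1.13 (adjusted p = 0.0162, edgeR) in libraries 59-61, a call lost without library 59 or 61. In libraries 62-64 it was -7.41 ± 1.36 (adjusted p = 0.00475, edgeR), or -11.78 without library 64.

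Tested directly, libraries 62-64 and 59-61 differed in none of the 64 members by edgeR's test, where 0.0463% of all genes fell and 0.0925% rose in libraries 62-64. At an unadjusted p under 0.05 there were 7 members (background 7.20%), of which 5 were higher in libraries 62-64 (background 4.11%). DESeq2 called 2 members, MELO3C030396.2 (adjusted p = 0.00601) and MELO3C026843.2 (adjusted p = 0.0433), both higher in libraries 62-64 (background 1.04%). With edgeR fitted to these libraries alone, 3 members were higher (background 0.621%), namely MELO3C026843.2, MELO3C030396.2 and MELO3C006757.2. The groups did not overlap in 2 members that were lower in libraries 62-64 (background 8.86%) and in 6 that were higher (background 9.33%). In libraries 62-64 a total of 11 members had no count, in libraries 59-61 a total of 14, and 7 had none in either group.

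In libraries 62-64, 19 of the 64 members had a mean of 1 CPM or more and 10 a mean of 5 CPM or more. The 4 with the highest means were MELO3C023255.2, MELO3C006757.2, MELO3C019755.2 and MELO3C008014.2. MELO3C006757.2 had 44.6, 25.1 and 26.0 CPM in libraries 62, 63 and 64, above the 9.73, 9.48 and 2.15 CPM of libraries 13, 14 and 15 and the 1.27, 5.14 and 1.89 CPM of libraries 59, 60 and 61. It was the only member with every library of 62-64 above every library of 13-15, and its log2 fold change of 2.01 ± 1.19 was not past the threshold (adjusted p = 0.225, edgeR). MELO3C019755.2 had 0.699, 14 and 54.4 CPM in libraries 62, 63 and 64, against 11, 15.7 and 12.1 CPM in libraries 13, 14 and 15. The spread within libraries 62-64 was wide, the log2 fold change was 0.76 ± 1.15 (adjusted p = 0.652, edgeR), and it was -0.92 without library 64. MELO3C008014.2 had 43.2, 4.92 and 20.3 CPM in libraries 62-64 and 87.4, 13.1 and 61.1 CPM in libraries 13-15, a log2 fold change of -1.32 ± 1.19 (adjusted p = 0.426, edgeR). In libraries 59, 60 and 61 that gene had 2.03, 0 and 3.88 CPM, each below every library of 62-64 and of 13-15.

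Among the 10 most abundant members, MELO3C007809.2 had the smallest fitted change in both comparisons. It had 11.4, 41.0 and 8.81 CPM in libraries 13, 14 and 15, 18.4, 9.13 and 38.7 CPM in libraries 59, 60 and 61, and 13.3, 6.45 and 5.59 CPM in libraries 62, 63 and 64. All 3 groups overlapped, although libraries 7-9, used in its selection, had held 2.01, 0.769 and 1.08 CPM. The log2 fold change was -0.03 ± 0.67 in libraries 59-61 (adjusted p = 0.99, edgeR) and -1.35 ± 0.69 in libraries 62-64 (adjusted p = 0.16, edgeR), or -0.32 without library 14.

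**Figure D4:**
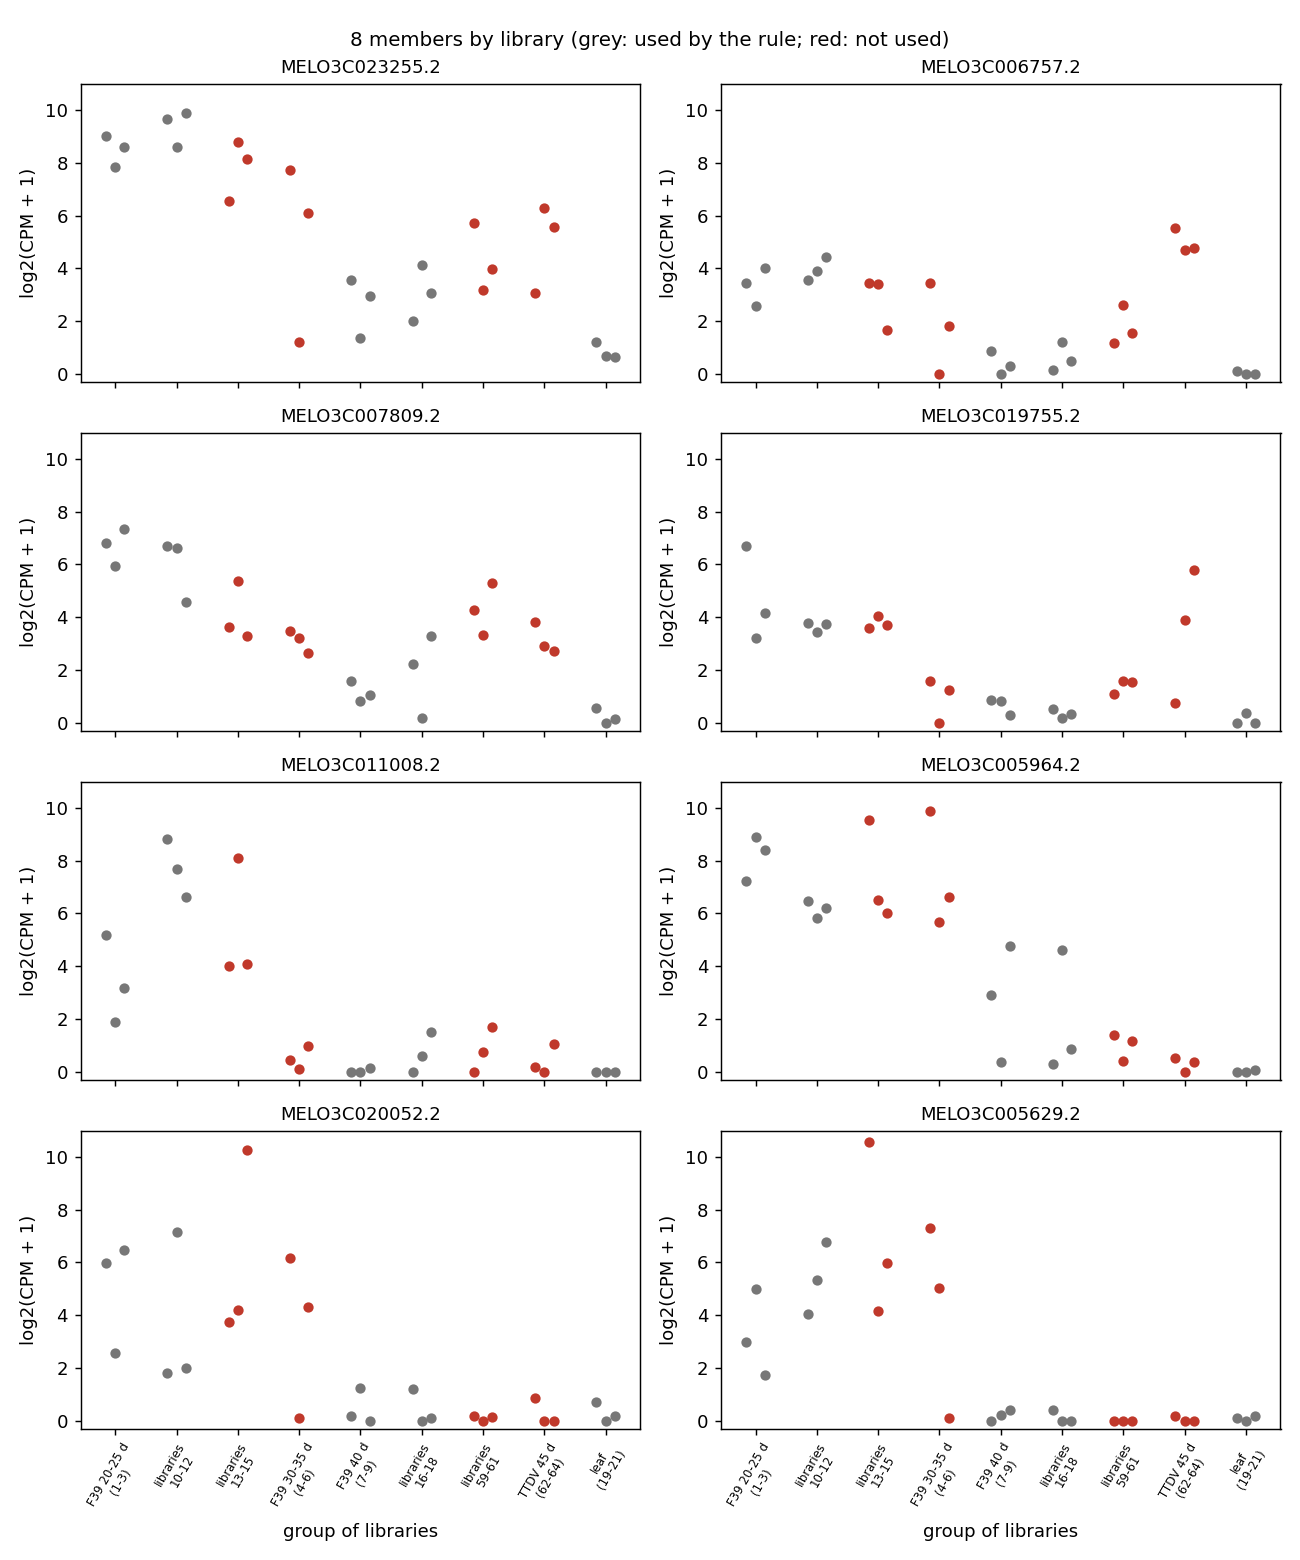
Level of single members in each library, as log2(CPM + 1), in 9 groups of 3 libraries, with each point 1 library and libraries used in the selection in grey. MELO3C005964.2 and MELO3C011008.2 are low in libraries 59-64, MELO3C007809.2 overlaps its level of libraries 13-15 there, and MELO3C006757.2 is higher in libraries 62-64. MELO3C020052.2 peaks in library 15 and MELO3C005629.2 in library 13.

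F39 fruit at 30-35 d (libraries 4-6) stood between the young and the older groups, with a wide spread. The summed level was 2791 CPM in library 4, 264 CPM in library 5 and 551 CPM in library 6 (1202 ± 1384, SD, n = 3). Library 4 was the highest of the 3 in 55 of the 64 members, and library 5 was lowest or tied in 49, counts for which no share over all genes is given. The order of library 4 above library 6 above library 5 held in 42 of the 64 members, and in 29.1% of all genes tested. Relative to the mean of libraries 1-3, the median level of a member was 0.549 in library 4, 0.0469 in library 5 and 0.134 in library 6, and 14, 2 and 0 members exceeded that mean.

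Against libraries 1-3, every library of 4-6 was lower in 34 members (background 13.1%), and none was higher throughout. The median ratio of group means was 0.244. Since libraries 1-3 chose the members for high values there, this is a description. Libraries 4-6 are F39 and libraries 13-15 TTDV under either reading. As attached, libraries 13-15 are at 20-25 d, and in that case cultivar and stage cannot be told apart between the groups. By their number they are at 30-35 d, the stage of libraries 4-6, and the labels then differ in cultivar alone. Against libraries 13-15, edgeR called no member in libraries 4-6 in either direction, where 0.238% of all genes fell and 0.456% rose. There were 10 members at an unadjusted p under 0.05, all lower (background 8.35%), and DESeq2 called 8, all lower (background 3.91%). The median log2 fold change was -1.70, 59 members were below 0, and 12 members lay lower without overlap (background 8.72%). Without library 4, edgeR called 10 members lower and 649 of all genes lower, and without library 15 it called 2 members and 56 of all genes lower.

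MELO3C002381.2, which was called in that comparison by DESeq2, had 44.0, 150.4 and 27.6 CPM in libraries 13, 14 and 15 and 5.63, 0.473 and 4.73 CPM in libraries 4, 5 and 6 (adjusted p = 0.0526, edgeR; it was singled out after its values were seen). MELO3C011008.2 had 0.371, 0.0676 and 0.946 CPM in libraries 4, 5 and 6, a log2 fold change from libraries 13-15 of -7.85 ± 1.68 (adjusted p = 0.0508, edgeR). Both lay just short of the threshold. MELO3C005964.2 had 954 CPM in library 4, above any library of 1-3, and 49.7 and 96.9 CPM in libraries 5 and 6.

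**Figure D5:**
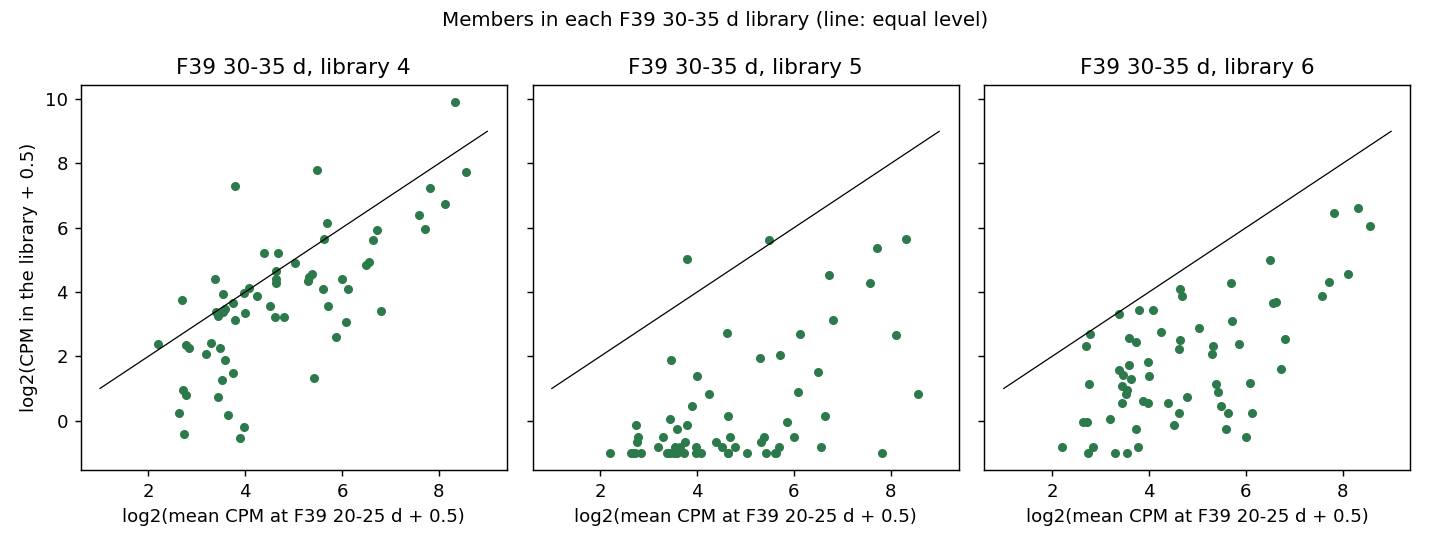
Level of each member in libraries 4, 5 and 6 (F39 at 30-35 d) on the vertical axis against its mean in libraries 1-3 (F39 at 20-25 d) on the horizontal axis, both as log2(CPM + 0.5), with a line of equal levels. Library 4 lies closest to the line but mostly below it, with 14 of the 64 members above and a median level of 0.549 of that mean. Libraries 5 and 6 lie further below, with 2 and 0 members above.

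Libraries 1-3 and 10-12 were both used in the selection, and their levels are given as a description. The ratio of the mean of libraries 10-12 to that of libraries 1-3 had a median of 1.11 over the members and ran from 0.192 to 15.9. Every library of 10-12 lay below every library of 1-3 in 3 members (background 11.9%) and above in 7 (background 5.39%). The largest ratio was that of MELO3C011008.2, with 35.1, 2.69 and 8.11 CPM in libraries 1, 2 and 3 and 449, 205 and 97.6 CPM in libraries 10, 11 and 12. MELO3C009122.2 had 5.71, 0.313 and 13 CPM and 77.3, 52.0 and 1.18 CPM, so that library 12 overlapped the first group. MELO3C002394.2 had 8.41, 1.75 and 2.12 CPM and 40.7, 25.4 and 15.6 CPM, without overlap. The members lowest in libraries 10-12 by this measure were MELO3C015011.2, MELO3C014053.2 and MELO3C005964.2. MELO3C005964.2 had 150.0, 473 and 337 CPM in libraries 1-3 and 88.7, 55.7 and 73.0 CPM in libraries 10-12. MELO3C015011.2 had 43.2, 17.5 and 85.9 CPM and 22.3, 3.19 and 1.35 CPM. The groups of the former did not overlap, and those of the latter overlapped in library 10.

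Libraries 13-15 resembled the young libraries of the selection in their sum but not in each member. The sums rested in part on single genes high in 1 library. In library 13 MELO3C005629.2 held more than any other member, with the level given above, and MELO3C005964.2 held 754 of the 3715 CPM. MELO3C020052.2 held 1229.9 of the 3654 CPM of library 15. The mean of libraries 13-15 was below that of libraries 1-3 in most members, with a median ratio of 0.817. Every library was lower in 10 members (background 8.42%) and higher in 2 (background 5.10%). The members were chosen for high values in libraries 1-3 and the background genes were not, so this is a description. In 61 members every library of 7-9 and 16-18 lay below every library of 1-3 and 10-12. Of these, 40, 50 and 39 had libraries 13, 14 and 15 at or above the lowest young library, and 5, 0 and 2 had them at or below the highest older library. For libraries 62, 63 and 64 the counts were 3, 3 and 5 at or above the lowest young library and 44, 47 and 48 at or below the highest older library. Both limits came from libraries used in the selection, and no share over all genes is given. The counts are therefore a description. MELO3C015011.2 had the lowest ratio of libraries 13-15 to libraries 10-12 of all 64 members, with 1.78, 0 and 0.226 CPM, and it had no count in libraries 59-61 or 62-64.

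In 11 of the 64 members, 1 library held more than 80% of the summed level of libraries 13-15. MELO3C020052.2 had 12.5, 17.4 and 1229.9 CPM in libraries 13, 14 and 15, and MELO3C023522.2 had 3.00, 22.6 and 499.5 CPM. Both were called lower in libraries 62-64, with log2 fold changes of -10.32 ± 2.58 (adjusted p = 0.0153, edgeR) and -5.79 ± 1.97 (adjusted p = 0.0482, edgeR). Without library 15 these values were -5.97 and -2.44, and the call of MELO3C023522.2 was lost. The call of MELO3C020052.2 was lost without library 63 or 64, and that of MELO3C023522.2 without any of libraries 14, 62, 63 and 64. MELO3C009122.2 had 0.405, 2.81 and 19.2 CPM in libraries 13-15 and 0.14, 0 and 0.196 CPM in libraries 62-64 (log2 fold change -5.63 ± 1.60, adjusted p = 0.0238, edgeR), a call lost without library 15, 62, 63 or 64.

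The members varied more between the libraries of a group than the tested genes did. The median coefficient of variation over the members was 49.3% in libraries 1-3, 63.7% in 10-12, 76.4% in 13-15 and 109% in 4-6. Over all genes tested it was 36.7%, 39%, 50.5% and 50.2%. The members were not matched to these genes on level. A single library held more than 80% of the summed level of its group in 4 members in libraries 1-3, 7 in 10-12, 11 in 13-15 and 22 in 4-6. The share of all genes tested past this limit is not given. MELO3C020052.2 was such a gene in both 10-12 and 13-15, with 2.51, 142 and 3.05 CPM in libraries 10, 11 and 12 and its peak in library 15. MELO3C005258.2 showed the same libraries high, with 4.30, 109 and 11 CPM in libraries 10-12 and 4.95, 19.9 and 132 CPM in libraries 13-15.

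The 380 genes that met the fruit criteria with a leaf mean of 1 CPM or more were compared in the same libraries. From libraries 13-15 to 62-64, 309 of the 380 fell and none rose by edgeR's test, and from libraries 13-15 to 59-61, 319 fell and none rose. As shares these are 81.3% and 83.9%, beside 65.6% and 75.0% of the members. In libraries 4-6 against 13-15, 9 of the 380 were called lower and 41.6% lay lower without overlap, beside 0 members called and 18.8% of the members without overlap. The difference between the sets was not tested, and they were not matched on level.

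Over the 12 libraries not used in the selection, the genes whose CPM ranked most like that of MELO3C023255.2 were MELO3C007615.2 (Spearman rho 0.986), MELO3C016791.2 (0.979) and MELO3C026042.2 (0.979), none of them a member. The libraries of a group share a source, so the values describe a shared order and carry no test. A shared order is not a shared fold. In libraries 13-15, 59-61 and 62-64 MELO3C023255.2 had means of 272.9, 24.8 and 43.6 CPM. The means were 47.0, 25.9 and 26.0 CPM for MELO3C007615.2 and 215.5, 14.8 and 16.4 CPM for MELO3C016791.2. For MELO3C026042.2 they were 4.19, 0.119 and 0.457 CPM. Among the members, MELO3C002393.2 and MELO3C002394.2 have IDs that differ by 1, and MELO3C023049.2 and MELO3C023051.2 have IDs that differ by 2. MELO3C002393.2 had 32.5, 40.5 and 22.6 CPM in libraries 13-15, beside 12.2, 15.2 and 17.1 CPM for MELO3C002394.2. In libraries 62-64 they had 0, 2.15 and 0.981 CPM and no count, and MELO3C002394.2 was at least 118-fold lower (adjusted p = 0.0167, edgeR). Neither MELO3C023049.2, with 5.51, 4.32 and 1.58 CPM in libraries 13-15, nor MELO3C023051.2, with 0.649, 3.34 and 1.13 CPM, was called lower in libraries 62-64 (adjusted p = 0.113 and 0.182, edgeR). Whether genes with close IDs share reads could not be examined, since the treatment of reads that match several genes is not stated in the sources used here.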

How the data were processed

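RNA was extracted in Trizol from powdered frozen tissue and sequenced after cDNA synthesis with a NuGen kit, per the labels' protocols. The deposited files hold raw whole-number counts per gene made by the authors, 1 file per library. The submitters' processing notes list STAR 2.5.4b and edgeR 3.12.1. The counting program, genome build, annotation and use of strand are not stated in the sources used here, so counts of overlapping or near-identical genes are uncertain. The files held 0 columns that matched no sample.

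The members, the lists and the comparisons were chosen with earlier results of these data known. Each library's CPM used its column total. Genes were kept by filterByExpr over all 27 libraries, TMM-scaled and tested in edgeR 4.0.16 (R 4.3.3) with the robust quasi-likelihood F-test in 1 model of the 12 libraries not used in the selection, p-values being adjusted by the Benjamini-Hochberg method over 15130 genes, at a threshold of 0.05. A standard error is the absolute log2 fold change divided by the square root of F. A group with no count was set to a floor of 3 counts, and 1 to 3 counts were given an exact Poisson 95% interval. Both cover counting error only. The edgeR script was checked on simulated data.

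Named genes were the 10 most abundant members, the 6 largest drops in libraries 62-64 without overlap, the 4 highest members in libraries 62-64, the 3 highest and 3 lowest ratios of libraries 13-15 to 10-12 and of 10-12 to 1-3, the 2 highest leaf means, the genes nearest to the limit and the 3 genes most like the most abundant member. Other genes were named after their values were seen. Alternatives were DESeq2 1.42.0, median-of-ratios scaling, no filter, a stricter filter, other sets of libraries in the fit, other limits of the selection and leaving out each library. Tables used Python 3.11.15 with pandas 2.3.3, numpy 2.4.6 and scipy 1.17.1, and figures matplotlib 3.10.9.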

Additional observations from a re-analysis of the deposited data

How the results depend on the processing

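The count of members depended on the limits of the selection. It was 64 as reported, 114 with a fold minimum of 4, 30 with 16, 121 with 0.1 CPM added and 39 with 1 CPM added, and 100 with a leaf limit of 2 CPM. With a leaf limit of 0.5 CPM it was 46, and with TMM-scaled CPM 45. Leaving out 1 library, the members called ranged from 18 to 37 for libraries 62-64 against 13-15 and from 18 to 40 for libraries 59-61 against 13-15, and all genes called from 2432 to 4242 and from 2333 to 4297. Without the filter the first count was 23 members, against 42 as reported. The matching count over all genes is not given.

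For libraries 62-64 against 59-61, DESeq2 called 2 members and the fit of these groups alone 3. All genes called were 21 as reported, 45 with all 27 libraries, 246 by DESeq2, 162 with these groups alone and 1 to 9 without 1 library. For libraries 4-6 against 13-15, members called were 4 with all 27 libraries, 8 by DESeq2 and 0 to 10 without 1 library. All genes called were 105 as reported, 202 without the filter, 1289 with all 27 libraries, 1483 by DESeq2, 0 with these groups alone and 1 to 1829 without 1 library. The cause was not tested.

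The sign reversed for MELO3C019755.2 in libraries 62-64 (-0.92 without library 64, a range of -0.92 to 1.33 without 1 library) and for MELO3C007809.2 in libraries 59-61 (1.00 without library 14, 0.10 without library 59 and 0.31 without library 60, a range of -0.66 to 1.00), and none of these was called. Over the other values of the named genes, 497 alternatives kept direction and call, 106 kept direction and lost the call and 7 gained it. Fold changes between libraries 62-64 and 59-61 were not all in this tally. There the sign of MELO3C011008.2, for example, reversed from -1.08 to 0.498 without library 61, with no call in either fit. Matching files to titles by library number changes the names of groups and no value.

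No paired analysis was possible because the titles carry a library number of their own for each sample and the groups share none. Low counts limit the precision most in leaf and older fruit, where many members had few or no counts.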
